A study of Mus musculus with 24 samples.

Results

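The comparison asks for which genes the difference between split and intact mouse embryos was not the same at the blastocyst as at the morula. It is the split effect at the blastocyst (split minus intact) minus the split effect at the morula (split minus intact), on a log2 scale, and is called the stage difference here. It used 20 of the 24 embryos of the series, chosen by stage and embryo origin as labelled. These were 5 intact morulae, 6 split morulae, 3 intact blastocysts and 6 split blastocysts, while 4 intact 8-cell embryos entered only an alternative fit. Of 37229 genes in the count table, 14566 had enough counts to be tested, and 392 passed the threshold (adjusted p under 0.05). All adjusted p-values below are from edgeR's two-sided quasi-likelihood F test with Benjamini-Hochberg adjustment over the 14566 genes, unless another tool is named.

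All embryos were of the ICR strain, conceived by in vitro fertilization and sequenced as single embryos by Smart-seq2, which copies whole polyadenylated transcripts from an oligo(dT) primer. For the split groups, late two-cell embryos that had cleaved fully were held in a biopsy medium, and their blastomeres were parted with a micromanipulator. Each blastomere then grew alone in a modified sodium hyaluronate gel. Intact embryos were never separated and were grown in parallel under matched conditions, so embryo origin and the separation procedure with its biopsy medium cannot be told apart. Labels name each split embryo's pair and blastomere, and they give neither litter nor batch nor sex. Sisters come from 1 two-cell embryo, so the counts of the sisters were summed, which left 14 units: 3 split morula pairs, 5 intact morulae, 3 split blastocyst pairs and 3 intact blastocysts. Nothing states that the embryos came from separate litters, so a p-value here is relative to differences among these 14 units, which may be partly technical.

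Total counts per library were 13888842 to 19014808 in intact morulae, 14146833 to 18852776 in split morulae, 13439059 to 25228658 in split blastocysts and 11316911 to 12653788 in intact blastocysts. With every library thinned to the smallest total, 10072 to 11949 genes were detected in split morulae and 12394 to 13263 in intact morulae. Split blastocysts had 12306 to 14042 and intact blastocysts 14035 to 15520. Median correlations within the group were 0.752 to 0.809 in split and 0.851 to 0.858 in intact morulae. In blastocysts they were 0.838 to 0.896 (split) and 0.873 to 0.881 (intact). The part of these differences in the results was not tested. Lineage markers differed in level. Gata6, of the primitive endoderm, had 112 to 158 normalised counts on a fixed library total (CPM) in every intact unit, and Nanog, of the epiblast, had 164 to 396. Some others were near 0 in intact morulae. Gata4 was at 0 in those other than number 1, and Eomes, of the trophectoderm, had 0.156 to 1.67 CPM in those other than number 4. The share of counts from the mitochondrial genome was 1.81% to 3.19% in split morulae, 2.70% to 5.06% in intact morulae, 0.841% to 2.34% in split blastocysts and 3.47% to 4.85% in intact blastocysts. Markers of cumulus cells (4 tested of 15), blood (2 of 10), sperm (5 of 12) and fibroblasts (2 of 8) gave no called gene. The summed level of the cumulus markers was 3570 to 6093 CPM in intact morulae, 1405 to 3403 in split morulae, 2116 to 4380 in intact blastocysts and 895 to 2237 in split blastocysts. It was led by Gja1, a gap junction gene that embryos also express, and its part in the results was not tested. Summed levels over all libraries were 1.67 to 182 CPM for blood, 0 to 9.90 for sperm and 0 to 10.03 for fibroblasts. Fshr, Foxl2, Amh, Inhba, Inha, Lhcgr and Hsd3b1 had 0 counts in all 20 libraries. Ptprc, Lyz2 and Csf1r of blood, and Col1a2, Col3a1, Dcn and Lum of fibroblasts, were also at 0.

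The proteasome held the largest number of called genes of any list examined. It is the protease that degrades ubiquitin-tagged proteins. Its barrel has outer alpha rings that gate entry and inner beta rings that carry the catalytic sites, and a regulatory cap binds ubiquitin, unfolds the substrate with a ring of ATPases and feeds it in. Early embryos use this machinery to clear proteins inherited from the egg, and CCGGAAG is a core run of the ETS-family sites common in housekeeping promoters, while the antioxidant response element (TGACNNNGC) is the site of the factors that raise proteasome genes under stress.

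The promoter windows below show where these letters stand in called proteasome genes. Each window is from RefSeq (GRCm38.p6), reads 5′ to 3′ on the gene's strand, ends no later than the last base before the annotated start, and has the match in capitals. The ETS matches of the 7 called genes that hold one are these, with 1 match shown for each gene:

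Psma6, chr12:55398668-55398724, plus strand: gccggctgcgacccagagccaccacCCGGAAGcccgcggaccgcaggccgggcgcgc
Psmc1, chr12:100110149-100110201, plus strand: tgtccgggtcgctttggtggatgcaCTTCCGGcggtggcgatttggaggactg
Psmc2, chr5:21786698-21786746, plus strand: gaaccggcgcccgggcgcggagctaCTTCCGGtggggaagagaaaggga
Psmc6, chr14:45329699-45329755, plus strand: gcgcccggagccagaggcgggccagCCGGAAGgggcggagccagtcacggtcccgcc
Psmd6, chr14:14120959-14121015, minus strand: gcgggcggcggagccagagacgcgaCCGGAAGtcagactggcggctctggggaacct
Psmd11, chr11:80428579-80428614, plus strand: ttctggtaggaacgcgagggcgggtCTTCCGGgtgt
Psmd12, chr11:107479486-107479527, plus strand: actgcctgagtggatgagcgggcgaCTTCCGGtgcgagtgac

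CTTCCGG is the same motif on the other strand. The antioxidant response letters stood in 4 called proteasome genes, in 2 of them beside an ETS match:

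Psmb5, chr14:54618009-54618067, minus strand: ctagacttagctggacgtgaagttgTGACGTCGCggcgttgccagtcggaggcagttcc
Psmc6, chr14:45329574-45329630, plus strand: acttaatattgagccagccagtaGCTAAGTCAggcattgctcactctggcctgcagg
Psmd12, chr11:107479278-107479314, plus strand: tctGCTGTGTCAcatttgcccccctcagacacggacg
Adrm1, chr2:180171401-180171459, plus strand: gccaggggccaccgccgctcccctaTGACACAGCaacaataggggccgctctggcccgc

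Both motifs were searched on both strands of the 250 bases before the start, and the motifs share no stretch in these windows. Of the 38 proteasome genes, 32 had a window, and 12 of these held CCGGAAG (37.5%), against 15.5% of all tested genes with a window and 22.8% of those with a mean log2 CPM over 7. TGACNNNGC stood in 5 of the 32 (15.6%), against 13.8% of tested genes. Of the 20 called proteasome genes with a window, 7 held CCGGAAG (35%) and 4 held TGACNNNGC (20%). Proteasome genes that were not called held CCGGAAG too: Pomp, Psmd2, Psmd4, Psme3 and Psme4. The share with CCGGAAG was thus not higher among the called genes than in the whole list. A match is a run of letters and not a measured binding site.

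Across all genes, 315 had a higher split effect at the blastocyst than at the morula (2.16% of those tested) and 77 had a lower one (0.529%), together 2.69%. An unadjusted p under 0.05 was reached by 2424 genes. The median stage difference was 1.38 among the higher genes (2.60-fold) and -1.69 among the lower genes (3.22-fold), against 0.03 over all tested genes. In 8 of the higher and 4 of the lower genes 1 group had no counts in any unit, and without these the medians were 1.37 and -1.67. Higher genes were 80.4% of all calls, against 42.7% on the log2(TPM + 1) scale and 37% with cyclic loess, both with limma. Single units moved the counts: without split blastocyst pair 1 they were 158 higher and 23 lower, and without intact blastocyst 1 they were 161 and 12. The lower count was also 34 and 26 without split blastocyst pairs 2 and 3, 37 and 41 without intact blastocysts 2 and 3, and 50 and 47 without intact morulae 1 and 4. Embryos were sequenced whole, so fewer cells of a type and less RNA per cell cannot be told apart.

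The 2 directions had different forms. Of the 315 higher genes, 235 had a fitted level lower in split than in intact morulae and higher in split than in intact blastocysts, 77 were higher in split embryos at both stages, and 3 were lower at both. Of the 77 lower genes, 65 were higher in split morulae and lower in split blastocysts, 11 were lower at both stages, and 1 was higher at both. Among the higher genes, every split blastocyst pair lay above every intact blastocyst for 299, a pattern that 18.1% of all tested genes had, and these units also entered the test. Among the lower genes, every split blastocyst pair lay below every intact blastocyst for 70, against 15% of all genes. At the morula, 96 of the higher genes had every split pair below every intact embryo (3.85% of all genes), and 24 of the lower genes had every split pair above (3.87%).

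Read along development, the fitted change from morula to blastocyst had a median over the higher genes of -1.18 in intact and 0.16 in split embryos (log2). For the lower genes the medians were 0.73 in intact and -0.98 in split embryos. The genes nearest the threshold were Rtn4 (adjusted p = 0.0493) and Wbp11 (0.0497) on the inner side, and Txndc17 (0.0511) and Nat1 (0.0512) on the outer side. The plot of the split effects at both stages shows the called genes away from the diagonal.

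**Figure D1:**
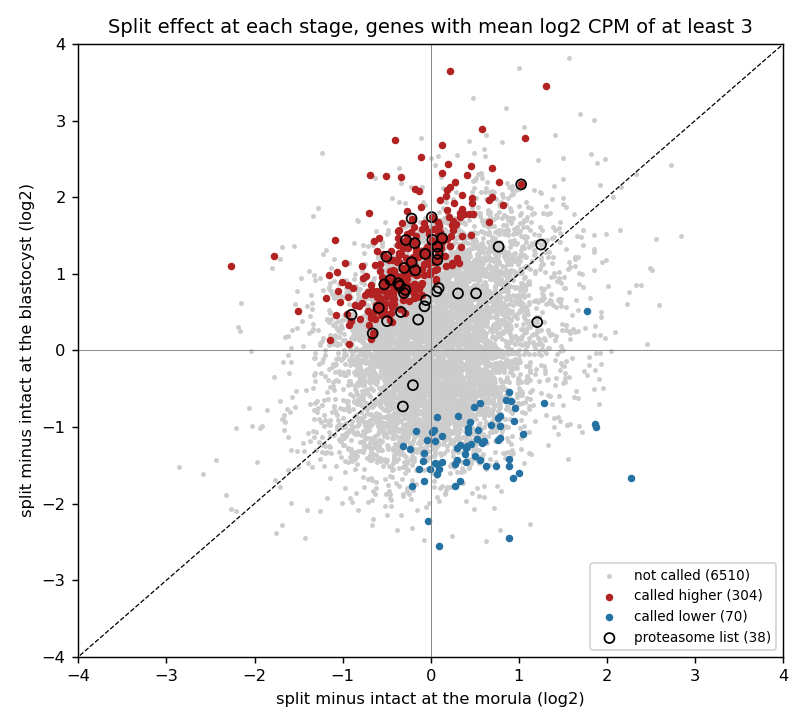
Split minus intact at the morula (horizontal, log2) against split minus intact at the blastocyst (vertical, log2) for the 6884 tested genes whose mean log2 CPM was 3 or more, of which 1 lies outside the axes. Points are genes: 304 called higher, 70 called lower, the rest grey, and black rings mark the 38 proteasome genes, of which 35 sit above the diagonal.

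Proteasome genes were called higher for 22 of 38 tested members (57.9%, against 2.16% of all genes), and 0 were called lower. The median stage difference over the list was 1.14, from a median split effect of -0.18 at the morula and 0.87 at the blastocyst. In intact embryos the median member changed by -0.93 from morula to blastocyst, and in split embryos by 0.18. For 33 of the 38 genes every split blastocyst pair lay above every intact blastocyst (18.1% of all genes).

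Summed over the 38 genes, proteasome transcripts had 26620, 27947, 26921, 27978 and 30554 CPM in the 5 intact morulae and 27176, 25731 and 22385 CPM in the 3 split morula pairs. They had 14461, 15808 and 13011 CPM in the 3 intact blastocysts and 28100, 27262 and 25743 CPM in the 3 split blastocyst pairs. The intact blastocysts stood apart from all other units, and split blastocysts overlapped the morulae of both origins. Single sister embryos gave the same order, with 25078 to 28777 CPM in the 6 split blastocysts and 13458 to 16275 CPM in the 3 intact ones. As a share of all counts the list took 2.51% ± 0.111 (SD, n = 5) in intact morulae and 2.44% ± 0.189 (6 sister embryos of 3 pairs) in split morulae. It took 1.69% ± 0.0848 (n = 3) in intact blastocysts and 2.81% ± 0.101 (6 sister embryos of 3 pairs) in split blastocysts. The 4 intact 8-cell embryos, which were not part of the test, had 1.68% ± 0.0503. Sisters of a pair are not independent, so the SDs of split and intact groups are not over like units.

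Of the inner beta ring, 4 of 7 genes were called: Psmb2, Psmb3, Psmb5 and Psmb7. Psmb3, a structural beta subunit, had 1029, 1242, 950, 1099 and 1192 CPM in intact morulae, 980, 866 and 872 in split morulae, 422, 476 and 486 in intact blastocysts, and 1207, 1277 and 1270 in split blastocysts. The morula groups overlapped, and the 3 split blastocyst pairs lay above all intact blastocysts. Its stage difference was 1.72 ± 0.19 (SE), with an adjusted p of 0.000552. Psmb7, a catalytic beta subunit, had 347, 369, 402, 419 and 475 CPM in intact morulae, 337, 341 and 361 in split morulae, 119, 153 and 118 in intact blastocysts, and 492, 412 and 381 in split blastocysts. Its groups overlapped at the morula and were apart at the blastocyst, and its stage difference was 1.94 ± 0.24 (adjusted p = 0.000552), the largest of the list. Psmb5, the catalytic subunit whose window holds the antioxidant response letters above, had 121 to 189 CPM in intact morulae, 141, 178 and 163 in split morulae, 114 to 152 in intact blastocysts and 360, 285 and 335 in split blastocysts. Split blastocysts were above all other units. Its stage difference was 1.18 ± 0.27 (adjusted p = 0.0237). Psmb3 and Psmb7 passed in all 29 alternatives, as did Psma5 and Psmc4 described next. Psmb1, Psmb4 and Psmb6 had stage differences of 0.55, 0.72 and 0.65 and did not pass.

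Of the outer alpha ring, 6 of 7 genes passed, all but Psma7 (0.84, adjusted p = 0.0735). Psma5 had 1048, 935, 914, 1014 and 1259 CPM in intact morulae and 843, 803 and 542 in split morulae, so that every split pair was below every intact morula. At the blastocyst the order turned, with 406, 458 and 318 CPM in intact and 1027, 891 and 842 CPM in split embryos. Its stage difference was 1.73 ± 0.26 (adjusted p = 0.00239). Psma2 and Psma6 had the same turn between groups that did not overlap, with stage differences of 1.39 and 1.05. The median split effect at the morula was -0.46 over the alpha ring, the lowest of the barrel and cap parts with more than 1 gene, against 0.04 for the ATPases.

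Of the 6 cap ATPases, which unfold substrates, 5 passed and Psmc3 did not (0.44, adjusted p = 0.318). Psmc4 had 748, 718, 705, 763 and 797 CPM in intact morulae and 825, 917 and 513 in split morulae, a wide spread around the intact values. It had 273, 215 and 276 CPM in intact blastocysts and 867, 819 and 867 in split blastocysts, giving a stage difference of 1.73 ± 0.25 (adjusted p = 0.00194). All 6 ATPases had every split blastocyst pair above every intact blastocyst, as did 18.1% of all genes, and these units also entered the test. The 13 other cap subunits gave 7 called genes. Psmd12, a subunit of the lid, had 1084 to 1356 CPM in intact morulae, 1121, 1112 and 973 in split morulae, 409, 375 and 295 in intact blastocysts and 784, 903 and 713 in split blastocysts. Its split blastocysts were thus above intact blastocysts and below every morula, and its stage difference was 1.37 ± 0.21 (adjusted p = 0.003).

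Adrm1, a ubiquitin receptor of the cap, was the 1 called subunit with every split morula pair above every intact morula. It had 392, 266, 317, 382 and 410 CPM in intact morulae and 615, 827 and 716 CPM in split morulae. At the blastocyst it had 125, 115 and 200 CPM in intact and 728, 618 and 626 CPM in split embryos. Its split effect was 1.03 at the morula (adjusted p = 0.0323) and 2.17 at the blastocyst, and the stage difference of 1.14 ± 0.29 was near the threshold (adjusted p = 0.0445). Across the 22 called genes, 15 had a fitted split effect below 0 at the morula and 7 above. Tested at each stage by itself, 2 of the 22 passed at the morula (Psma3 and Adrm1) and 20 at the blastocyst. Adrm1 passed at both stages and Psmc6 at neither.

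The remaining members carry other functions. None of the 4 activator genes passed: Psme1 had a stage difference of 1.08 (adjusted p = 0.295), Psme2 1.37 (0.0972), Psme3 -0.25 (0.840) and Psme4 -0.42 (0.717). The lid subunit Psmd3 was the third member below 0 (-0.84, adjusted p = 0.397). The assembly factor Pomp had 0.88 (adjusted p = 0.139). Outside the list, and picked after their values were seen, 2 assembly chaperones were called: Psmg1 (1.72 ± 0.34, adjusted p = 0.0113) and Psmg2 (1.36 ± 0.31, adjusted p = 0.0244). So were Uchl5 (1.45, adjusted p = 0.00475), a deubiquitinase that binds Adrm1, Ubb (1.30, adjusted p = 0.0107), which encodes ubiquitin, and Ufd1 (1.38, adjusted p = 0.00271), a cofactor that brings ubiquitinated proteins to the segregase Vcp. Vcp itself had -0.16 (adjusted p = 0.884).

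Of the factors that act on the antioxidant response element, 2 were examined, and neither was called. Nfe2l1, which drives proteasome genes when degradation is impaired, had 11.3 to 32.8 CPM in intact morulae, 22.8 to 39.1 in split morulae, 25.4 to 41.3 in intact blastocysts and 40.2 to 46.8 in split blastocysts, with a stage difference of -0.32 ± 0.53 (adjusted p = 0.866). Nfe2l2 had 0.11 ± 0.35 (adjusted p = 0.953). Transcript levels do not measure the activity of these proteins. The names of both were picked after their values were seen.

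**Figure D2:**
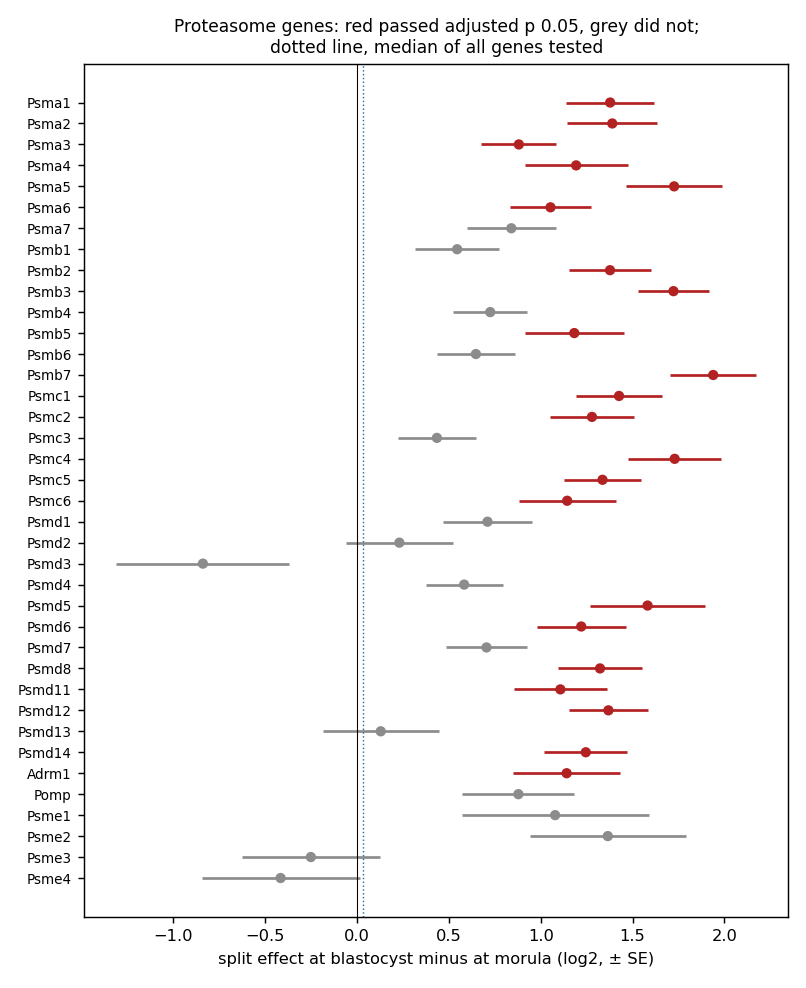
Stage difference (log2, bars ± SE) of the 38 proteasome genes, with red for those past an adjusted p of 0.05 and grey for the others; the dotted line is the median of all genes tested. The 22 red genes lie between 0.88 and 1.94, and 3 grey genes lie below 0.

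Abundance and transcript length moved with the result. Genes called higher were abundant (median of the mean log2 CPM 7.96, against 2.68 for all genes) and short (median length 1286 bases, against 3320 for lower genes and 1989 for all). The share called higher was 0.143% of genes with a mean log2 CPM under 3 and 27.6% of those over 9. The median stage difference was 0.35 for transcripts under 1000 bases, 0.41 for 1000 to 2000, -0.17 for 2000 to 4000 and -0.64 for those over 4000. Proteasome genes had a median length of 1227 bases and a mean log2 CPM of 9.22. Within the genes of 1000 to 2000 bases and a mean log2 CPM over 7, 23.1% of 494 genes outside the proteasome list were called higher, and 57.9% of 19 proteasome genes. With a length trend removed for each unit, chosen after seeing the data, 122 genes were called higher and 45 lower, of which 14 were proteasome genes, all higher. With cyclic loess, which removes trends with abundance between units at all levels, the calls were 68 higher and 116 lower, with 8 higher and 0 lower proteasome genes.

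**Figure D3:**
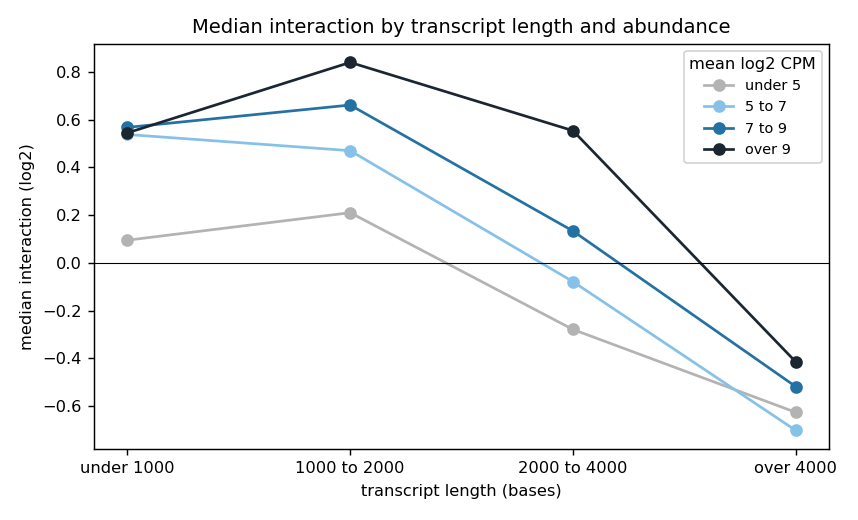
Median stage difference (log2) of tested genes in 4 bands of transcript length (bases), with 1 line for each band of mean log2 CPM. Every line falls from 1000 to 2000 bases to over 4000 bases, where all bands lie below 0.

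Sterol and fatty acid synthesis gave 3 called genes of 37, all higher (8.11%, against 2.16% of all genes), and all 3 were among the 15 largest higher genes whose mean log2 CPM was 3 or more. The list's median was 0.67. Cholesterol is built from isoprene units, which Idi1 prepares, Fdft1 joins into squalene and Ebp, at a later step, helps to turn into the finished sterol. Idi1 had 52.0, 22.6, 33.7, 27.9 and 38.9 CPM in intact morulae, 24.5, 20.6 and 19.98 in split morulae, 39.9, 22.7 and 19.04 in intact blastocysts and 156, 105 and 140 in split blastocysts. Split blastocysts stood above every other unit, and the stage difference was 2.99 ± 0.48 (adjusted p = 0.0038). Ebp had 143 to 305 CPM in intact morulae, 184, 166 and 123 in split morulae, 137, 67.6 and 159 in intact blastocysts and 680, 356 and 702 in split blastocysts, with a stage difference of 2.60 ± 0.46 (adjusted p = 0.00529). Fdft1 had 99.6 to 265 CPM in intact morulae, 147, 245 and 354 in split morulae, 180, 86.8 and 102 in intact blastocysts and 1062, 771 and 893 in split blastocysts, with a stage difference of 2.31 ± 0.48 (adjusted p = 0.015). Idi1 passed in 29, Ebp in 28 and Fdft1 in 24 of 29 alternatives.

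The rest of the pathway was not uniform. Hmgcs1, which makes HMG-CoA, had a stage difference of -1.16 (adjusted p = 0.242), and was picked after its value was seen. In promoter windows, CCAAT stood in 21 of the 27 sterol and fatty acid genes with a window (77.8%), against 41% of tested genes, on either strand. The windows of Idi1 and Ebp are shown because these called sterol genes have an entry in the table and moved together:

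Idi1, chr13:8885536-8885590, plus strand: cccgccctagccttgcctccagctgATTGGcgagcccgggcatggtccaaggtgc
Ebp, chrX:8193538-8193592, minus strand: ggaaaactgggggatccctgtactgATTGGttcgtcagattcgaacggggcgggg

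ATTGG is CCAAT on the other strand. A form of the sterol response element, TCACNCCAC, stood in 1 of these 27 genes (3.7%) and in 1.29% of tested genes. The letters are a description of the sequence only.

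Antioxidant genes gave 7 called members of 30, all higher (23.3%, against 2.16% of all genes), with a list median of 0.49. With the length trend removed 4 were called higher, and 2 each on the TPM scale and with cyclic loess. They were Txn1, Prdx1, Prdx2, Prdx6, Sod2, Gpx4 and Gstp1, which reduce or bind peroxides, superoxide and electrophiles. Txn1, thioredoxin, had 372, 486, 490, 476 and 426 CPM in intact morulae and 233, 298 and 317 in split morulae. It had 461, 483 and 393 CPM in intact blastocysts and 835, 774 and 703 in split blastocysts. The split pairs lay below the intact embryos at the morula and above them at the blastocyst, and the stage difference was 1.46 ± 0.23 (adjusted p = 0.003). Prdx1, a peroxiredoxin, had 1254 to 1727 CPM in intact morulae, 870, 945 and 1680 in split morulae, 733, 1038 and 801 in intact blastocysts and 2401, 2106 and 2380 in split blastocysts (1.77 ± 0.29, adjusted p = 0.004). Sod2, the mitochondrial superoxide dismutase, had 689 to 944 CPM in intact morulae, 553, 613 and 291 in split morulae, 765, 687 and 620 in intact blastocysts and 1323, 979 and 1223 in split blastocysts (1.48 ± 0.30, adjusted p = 0.0118). For all 7 genes every split blastocyst pair lay above every intact blastocyst, and 6 had a fitted split effect below 0 at the morula. The first pattern was found in 18.1% of all genes and in 299 of the 315 called higher, since these units also entered the test. Of the 315, 235 had a fitted split effect below 0 at the morula and above 0 at the blastocyst.

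**Figure D4:**
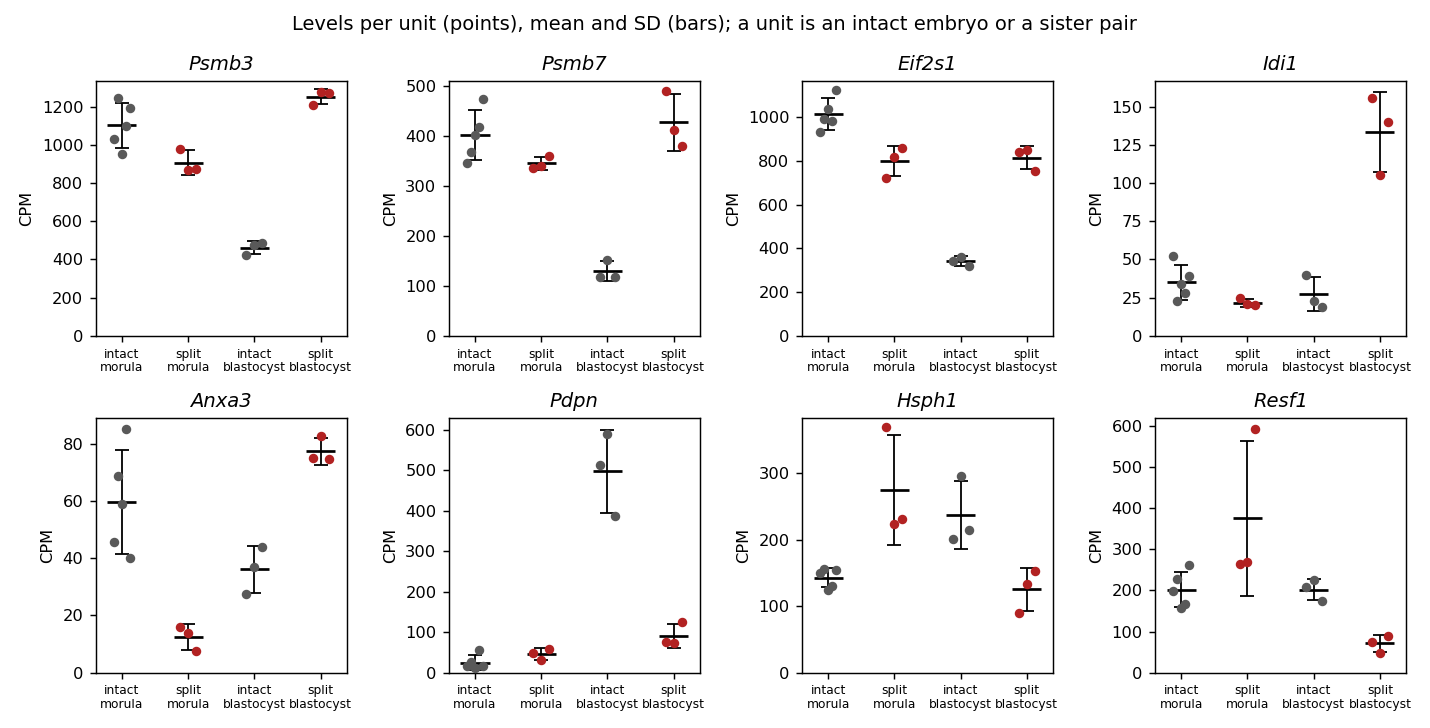
Levels (CPM) per unit in intact and split morulae and blastocysts for chosen genes; points are units (intact embryos or sister pairs), and bars give the mean and SD. In Psmb3 the 3 intact blastocysts (422 to 486) lie below all other units, and in Idi1 the 3 split blastocyst pairs (105 to 156) lie above them.

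Protein folding was divided. Of 33 chaperone genes, 6 were called higher and 1 lower (18.2% and 3.03%, against 2.16% and 0.529% of all genes). The higher genes included 5 subunits of the chaperonin CCT, which folds actin and tubulin: Cct8 (1.35, adjusted p = 0.003), Cct7, Tcp1, Cct4 and Cct5, with Ahsa1, an activator of the chaperone Hsp90. Tcp1 had 567 to 746 CPM in intact morulae, 570, 592 and 931 in split morulae, 158, 240 and 185 in intact blastocysts and 605, 532 and 564 in split blastocysts (1.44 ± 0.28, adjusted p = 0.00837). Hsph1, a large heat shock protein, went the other way, with 150, 156, 124, 130 and 155 CPM in intact morulae and 369, 223 and 231 in split morulae. It had 200, 295 and 215 CPM in intact blastocysts and 89.5, 133 and 153 in split blastocysts. Split morulae were thus above, and split blastocysts below, all intact embryos of their stage, and the stage difference was -1.86 ± 0.32 (adjusted p = 0.00506). The list's median was 0.24, and it was below 0 on the TPM scale (-0.16) and with cyclic loess (-0.19), where 1 and 0 chaperone genes passed as higher. Of all genes with a mean log2 CPM of 7 to 9, where the median of this list lay (8.80), 12.7% were called higher.

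Ribosomal protein genes gave 12 called genes of 86, all higher (14%, against 2.16% of all genes), and a median of 0.52. They are abundant and short (median of the mean log2 CPM 9.26, median length 704 bases). Of all genes over 9 and under 1000 bases 19.7% were called higher, a share that the list did not exceed. List members were not taken out of that group, so this does not show how the list stood against other genes like them. With cyclic loess the median was -0.04 and none passed, and none passed with the length trend removed. Their median split effect was -0.29 at the morula and 0.23 at the blastocyst. Rps6, of the small subunit, had 1737 to 2532 CPM in intact morulae, 1488, 1601 and 1296 in split morulae, 594, 1027 and 755 in intact blastocysts and 1701, 1474 and 1331 in split blastocysts (1.41 ± 0.26, adjusted p = 0.00625). Reads of ribosomal protein genes can also match processed copies, and how these were counted was not stated. Translation initiation factors, a list added after the values were seen, gave 8 higher and 1 lower of 55 (14.5% higher). Its median of 0.29 was below 0 on the TPM scale (-0.13) and with cyclic loess (-0.07). Of all genes with a mean log2 CPM of 7 to 9, where the median of this list lay (7.62), 12.7% were called higher. Eif2s1, the alpha subunit of eIF2, had 931 to 1125 CPM in intact morulae, 722, 818 and 859 in split morulae, 345, 362 and 319 in intact blastocysts and 840, 852 and 754 in split blastocysts (1.60 ± 0.19, adjusted p = 0.000552). Eif3m, of the eIF3 complex, had 1.75 ± 0.21 (adjusted p = 0.000552), while Eif3a of the same complex was the lower one (-0.88, adjusted p = 0.0443). Aimp2, a scaffold of the tRNA synthetase complex, had 81.8 to 115 CPM in intact morulae, 105, 87.7 and 139 in split morulae, 29.1, 26.5 and 26.1 in intact blastocysts and 144, 129 and 134 in split blastocysts (2.19 ± 0.31, adjusted p = 0.00188).

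The RNA exosome, which trims and degrades RNA, gave 2 called genes of 9, both higher, in a list added after the values were seen. The share was 22.2%, against 2.16% of all genes and 12.7% of those with a mean log2 CPM of 7 to 9, where the list's median lay. Exosc9 had 250, 172, 190, 216 and 187 CPM in intact morulae, 135, 161 and 80.4 in split morulae, 22.5, 35.5 and 30.5 in intact blastocysts and 107, 113 and 87.6 in split blastocysts. Intact blastocysts lay below all other units, while split morulae and split blastocysts overlapped, and the stage difference was 2.49 ± 0.35 (adjusted p = 0.00188).

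Genes of the respiratory chain encoded in the nucleus gave 7 higher calls of 76 (9.21%, against 2.16% of all genes), with a median of 0.48. The median was 0.14 with the length trend removed, 0.09 with cyclic loess and 0.07 on the TPM scale, and 2 genes were called higher in each. This list had medians of 659 bases and a mean log2 CPM of 8.22. Of all genes under 1000 bases with a mean log2 CPM of 7 to 9, 12.1% were called higher, a share that the list did not exceed. That group was not cleared of list members, so the list was in part compared with itself. Ndufa9, of complex I, had 354 to 419 CPM in intact morulae, 366, 296 and 304 in split morulae, 141, 163 and 143 in intact blastocysts and 407, 336 and 383 in split blastocysts (1.59 ± 0.21, adjusted p = 0.00172). Uqcrc1, a core subunit of complex III, was above the intact level at both stages. It had 460 to 696 CPM in intact morulae, 1086, 958 and 913 in split morulae, 232 to 371 in intact blastocysts and 1422, 1224 and 1408 in split blastocysts (1.42 ± 0.26, adjusted p = 0.00625). Mitochondrial ribosomal protein genes, also added after the values were seen, gave 10 higher of 77 (13%) and a median of 0.64. Of all genes with a mean log2 CPM of 7 to 9, where the median of this list lay (7.34), 12.7% were called higher. The list had 6 higher calls with the length trend removed and 2 each on the TPM scale and with cyclic loess. Transcripts of the mitochondrial genome pointed the other way: 1 of 13 was called, as lower (7.69%, against 0.529% of all genes). It was mt-Nd5, with 1859, 1955 and 1555 CPM in intact and 923, 651 and 628 in split blastocysts (-1.06 ± 0.27, adjusted p = 0.0421). Of the 13, 12 were below 0, while 51.1% of all tested genes were above 0. The mt-Nd5 call ended with 10 of 14 units left out in turn. Split embryos also had the lower mitochondrial shares given above, and the part of these shares in the result was not tested.

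DNA replication genes gave 7 higher calls of 51 (13.7%, against 2.16% of all genes). These were Pcna, the sliding clamp, Rfc2, Rfc3 and Rfc4 of the loader that places it, Tyms and Tk1, which make thymidylate, and Slbp, which binds histone messages. Pcna had 164 to 313 CPM in intact morulae, 141, 115 and 88.1 in split morulae, 118, 104 and 83.5 in intact blastocysts and 222, 158 and 171 in split blastocysts (1.79 ± 0.35, adjusted p = 0.0102). Its split pairs were below all intact embryos at the morula and above them at the blastocyst. Tyms had 493 to 609 CPM in intact morulae, 505, 503 and 372 in split morulae, 115, 146 and 142 in intact blastocysts and 311, 295 and 268 in split blastocysts (1.37 ± 0.23, adjusted p = 0.00438). The list's median was 0.23, and -0.32 on the TPM scale, where none passed as higher; 3 passed with the length trend removed and 2 with cyclic loess. Apex1, a base excision repair enzyme outside the list, had 60.9 to 77.8 CPM in intact morulae and 80.9 to 81.5 in split morulae. It had 12.2, 12.4 and 17.8 CPM in intact blastocysts and 65.6, 87.2 and 76.3 in split blastocysts (2.24 ± 0.34, adjusted p = 0.00258).

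Mitotic genes of the late cell cycle were among the lower calls. Top2a, the topoisomerase that untangles sister chromatids, had 148 to 223 CPM in intact morulae, 205, 152 and 231 in split morulae, 472, 438 and 303 in intact blastocysts and 140, 156 and 138 in split blastocysts (-1.56 ± 0.28, adjusted p = 0.00646). Intact embryos thus had more Top2a at the blastocyst, and split ones did not. Espl1, separase, which opens the cohesin ring, had 5.04 to 15.6 CPM in intact morulae, 28.5, 31.1 and 40.4 in split morulae, 37.8, 33.1 and 22.3 in intact blastocysts and 12.6, 19.4 and 14.4 in split blastocysts (-2.88 ± 0.62, adjusted p = 0.0169). Cenpf, a kinetochore protein, had -1.86 ± 0.35 (adjusted p = 0.00795). In the same list of 50 genes Bub3, of the spindle checkpoint, and Anapc10, of the anaphase-promoting complex, were called higher (1.04 and 1.28), and the median was 0.06. The list thus had 4% higher and 6% lower calls, against 2.16% and 0.529% of all genes. The Espl1 call ended without split blastocyst pair 1 or 3 or intact blastocyst 1, and that of Bub3 without intact blastocyst 1. With the length trend removed Top2a (-0.97, adjusted p = 0.109), Espl1 (-2.51, adjusted p = 0.0553) and Bub3 (0.66, adjusted p = 0.152) did not pass. Cenpf did (-1.62, adjusted p = 0.0348).

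Chromatin genes had the most negative median of the lists with 30 or more tested genes, -0.84, from 0.19 at the morula and -0.58 at the blastocyst. Of the 71 genes 3 were called, all lower (4.23%, against 0.529% of all genes), and 39 had every split blastocyst pair below every intact blastocyst (15% of all genes). Smarca4, the ATPase of the BAF remodeler, had 28.0 to 50.5 CPM in intact morulae, 57.0, 76.7 and 87.3 in split morulae, 95.3, 81.6 and 81.8 in intact blastocysts and 48.1, 60.4 and 55.7 in split blastocysts (-1.57 ± 0.38, adjusted p = 0.0346). Chd1, a remodeler of transcribed genes, had 56.4 to 96.9 CPM in intact morulae, 90.8, 97.8 and 159 in split morulae, 143, 115 and 108 in intact blastocysts and 48.6, 58.6 and 51.8 in split blastocysts (-1.78 ± 0.37, adjusted p = 0.0135). Baz1a, of the ACF remodeler, had -1.12 (adjusted p = 0.0343). The calls were fragile: of 14 units left out in turn, 10 ended that of Smarca4, 11 that of Baz1a, and 1, intact blastocyst 1, that of Chd1. Outside the list, the histone demethylase Kdm3a had 26.6 to 48.9 CPM in intact morulae, 66.7, 75.3 and 84.1 in split morulae, 72.4, 55.1 and 60.3 in intact blastocysts and 17.6, 34.5 and 36.3 in split blastocysts (-2.13 ± 0.43, adjusted p = 0.0123). The Kdm3a call ended with the length trend removed (-1.62, adjusted p = 0.0692). The list's genes were long (median 3402 bases), with a median of the mean log2 CPM of 5.19. Of all genes with a mean log2 CPM of 5 to 7, 1.65% of those of 2000 to 4000 bases were called lower. Over 4000 bases it was 4.08%. The median stage differences of these 2 bands were -0.08 and -0.70. With the length trend removed the list's median was -0.43 with 1 called gene, while cyclic loess gave -0.86 with 6.

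Resf1, which is known for silencing retroviruses in embryonic stem cells, had 198, 229, 156, 167 and 262 CPM in intact morulae, 264, 269 and 594 in split morulae, 207, 225 and 174 in intact blastocysts and 74.2, 48.8 and 89.8 in split blastocysts. The intact groups had like levels at both stages, whereas the split pairs were all above intact morulae and all below intact blastocysts (-2.40 ± 0.40, adjusted p = 0.00448). Cstf2t, a cleavage stimulation factor outside the lists and among the 15 largest lower genes, had 33.3 to 63.1 CPM in intact morulae, 53.8, 48.1 and 50.3 in split morulae, 52.7, 112 and 51.7 in intact blastocysts and 15.9, 11.3 and 9.70 in split blastocysts (-2.65 ± 0.49, adjusted p = 0.00688). Pcf11, a cleavage factor that also ends transcription, had 40.8 to 66.8 CPM in intact and 9.76 to 14.6 in split blastocysts, with overlapping morulae (-2.19 ± 0.47, adjusted p = 0.0171). It belongs to a list of 33 genes of RNA export and 3′ processing, which had 2 higher and 3 lower calls. These were 6.06% and 9.09%, against 2.16% and 0.529% of all genes. The list's median was 0.04, a sign that 13 of 29 alternatives turned. Poldip3, an export adaptor, was above intact embryos at both stages. It had 83.5 to 115 CPM in intact and 330, 291 and 374 in split morulae, then 127 to 139 in intact and 147, 222 and 200 in split blastocysts (-1.26 ± 0.26, adjusted p = 0.015). Its call ended without split blastocyst pair 1 or intact blastocyst 1, and that of Pcf11 when any of 4 blastocyst units was left out. With the length trend removed neither Poldip3 (adjusted p = 0.0671) nor Pcf11 (adjusted p = 0.0539) passed.

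Splicing genes were divided, with 7 higher and 3 lower of 72 (9.72% and 4.17%, against 2.16% and 0.529% of all genes). The higher ones included the snRNP proteins Snrpa (1.67, adjusted p = 0.00475), Snrpa1, Snrpb2 and Snrpd3, and the lower ones were Son (-0.93, adjusted p = 0.0346), Hnrnpu (-1.25, adjusted p = 0.0366) and Hnrnpa0. The list's median was -0.08, and 0.06 with the length trend removed. Of all genes with a mean log2 CPM of 7 to 9, where the median of this list lay (7.37), 12.7% were called higher, a share above that of the list. Actin regulators gave 3 higher calls of 53 (5.66%, against 2.16% of all genes), Cfl1 (1.34, adjusted p = 0.003), Cdc42 and Pfn1, in a list whose median was -0.34. These 3 act on actin assembly: cofilin severs filaments, profilin loads monomers and Cdc42 signals to nucleators. Glycolysis gave 3 higher calls of 25 (12%, against 2.16% of all genes) with a median of 0.80: Eno1, its near-identical copy Eno1b, between which reads may be split, and Tigar, which lowers glycolytic flux. Eno1 had 34.7 to 53.8 CPM in intact morulae, 84.2, 107 and 74.7 in split morulae, 32.9, 71.0 and 80.1 in intact blastocysts and 373, 389 and 500 in split blastocysts (1.71 ± 0.38, adjusted p = 0.0219), a call that ended without split blastocyst pair 3. With the length trend removed 1 glycolysis gene was called higher, and none on the TPM scale, where the median was 0.29, or with cyclic loess. The Tigar call ended without split blastocyst pair 2, and calls of Cdc42 and Pfn1 with 4 and 10 of 14 units left out in turn.

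**Figure D5:**
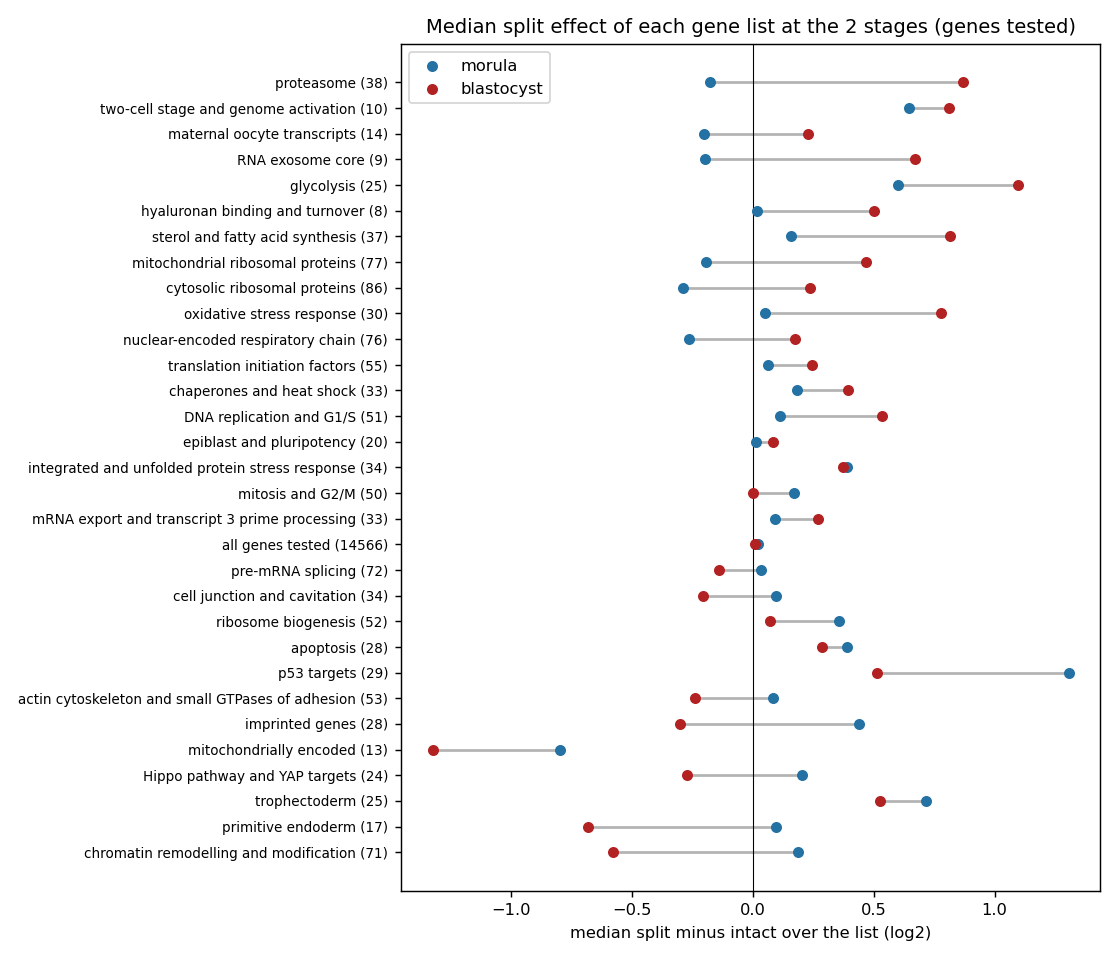
Median split minus intact (log2) at the morula (blue) and at the blastocyst (red) for each gene list, with the number of tested genes in parentheses. The proteasome runs from -0.18 to 0.87, and chromatin genes run from 0.19 to -0.58.

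Several of the largest single stage differences belonged to no list. Anxa3, an annexin, had 45.7, 68.7, 58.9, 85.2 and 40.2 CPM in intact morulae, 16.1, 13.7 and 7.42 in split morulae, 27.3, 36.8 and 44.0 in intact blastocysts and 74.9, 82.9 and 74.6 in split blastocysts. The groups did not overlap at either stage and their order turned (3.37 ± 0.49, adjusted p = 0.00188). Cbr2, a carbonyl reductase, was nearly gone from intact blastocysts: it had 22.1 to 32.0 CPM in intact morulae, 13.1, 60.7 and 24.8 in split morulae, 1.54, 1.26 and 1.59 in intact blastocysts and 16.7, 15.4 and 23.1 in split blastocysts (3.43 ± 0.68, adjusted p = 0.0107). Allc, Mpv17l, Kyat3, Mad2l2 and Cyb5r3 were also among the 15 largest higher genes whose mean log2 CPM was 3 or more, with stage differences of 3.15, 3.00, 2.53, 2.29 and 2.22. Of 14 units left out in turn, 11, 6, 4, 12 and 9 ended these calls, and none ended those of Anxa3 and Cbr2. The Anxa3 call did end in 4 of 29 alternatives, with each split embryo as its own sample (3.33, adjusted p = 0.197), with either blastomere alone, and with 8-cell embryos in the fit, with an adjusted p of up to 0.297. The Cbr2 call ended in 6, among them the embryo of origin as a random effect in limma (adjusted p = 0.347), blastomere 1 only (adjusted p = 0.188) and cyclic loess (adjusted p = 0.224), with an adjusted p of up to 0.429.

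Auts2 and Pdpn had the largest stage differences among the lower genes whose mean log2 CPM was 3 or more, with clone and pseudogene names left out. Podoplanin, the membrane glycoprotein encoded by Pdpn, had 16.1, 25.1, 11.1, 55.3 and 16.7 CPM in intact morulae, 49.0, 30.2 and 58.4 in split morulae, 513, 590 and 387 in intact blastocysts and 74.7, 72.8 and 125 in split blastocysts. Its stage difference was -3.34 ± 0.60 (adjusted p = 0.00625), and intact blastocysts stood above all other units. Auts2, which works with Polycomb proteins, had 1.02 to 7.74 CPM in intact morulae, 29.5, 12.6 and 21.7 in split morulae, 15.7, 17.2 and 33.6 in intact blastocysts and 9.19, 6.43 and 5.29 in split blastocysts (-3.94 ± 0.95, adjusted p = 0.0326). Dicer1, which cuts microRNA precursors, had 9.70 to 22.5 CPM in intact morulae, 37.4, 15.4 and 18.8 in split morulae, 36.7, 43.7 and 48.1 in intact blastocysts and 17.6, 12.6 and 14.8 in split blastocysts (-2.25 ± 0.58, adjusted p = 0.0448). Xpo6, Ankhd1, Rprd1b, Etaa1, Pspc1, Nktr and Cebpg had stage differences of -2.83, -2.60, -2.60, -2.31, -2.13, -2.04 and -2.03. No unit left out ended the call of Pdpn, but it ended with each split embryo as its own sample (-3.33, adjusted p = 0.195), with the embryo of origin as a random effect in limma (-1.66, adjusted p = 0.590) and with blastomere 2 of each pair only (-1.33, adjusted p = 0.724). Of the 14 units left out in turn, 6 ended that of Auts2, and 11 that of Dicer1; for the other 7 it was 6 to 13.

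Lineage genes gave few calls. Of the panel of 20 lineage and stage markers 1 passed, Dppa3, and the lowest adjusted p of the other 19 was 0.137. No member passed in the lists of trophectoderm, epiblast, primitive endoderm, two-cell stage, apoptosis, unfolded protein stress, imprinted or hyaluronan genes. Dppa3, a maternal protein that guards methylation in the zygote, was also the 1 called gene of the 14 oocyte genes tested. It had 10547 to 13100 CPM in intact morulae, 7767, 8144 and 10890 in split morulae, 3006, 3988 and 2877 in intact blastocysts and 6403, 6492 and 4249 in split blastocysts (1.19 ± 0.24, adjusted p = 0.0118). Blastocysts lay below the morulae of the same origin. The call ended in 7 of 29 alternatives, among them both TPM scales, cyclic loess, the length offset (0.80, adjusted p = 0.128), the embryo of origin as a random effect (adjusted p = 0.2) and blastomere 1 only, and the lowest value among the alternatives was 0.09. Pou5f1 was above intact embryos at both stages, with 7.66 to 21.8 CPM in intact and 43.2 to 70.6 in split morulae, and 4.40 to 11.3 in intact and 43.0 to 72.3 in split blastocysts. Its stage difference of 1.15 ± 0.57 did not pass (adjusted p = 0.324), and Gata6 had -0.86 ± 0.30 (adjusted p = 0.137).

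Other single calls came from 3 lists. Taok1, a kinase upstream of the Hippo pathway, was the 1 called gene of 24 in that list (-1.65, adjusted p = 0.0225). Rpf2, a ribosome assembly factor, was 1 of 52 in ribosome biogenesis (1.42, adjusted p = 0.0333). The Taok1 call ended with 3 of 14 units left out in turn and the Rpf2 call with 8. With the length trend removed neither passed: Taok1 had -0.68 (adjusted p = 0.475) and Rpf2 1.02 (adjusted p = 0.152). Dsc2, the desmosomal cadherin desmocollin 2, was 1 of 34 junction genes, with 1.49, 1.28, 2.89, 0 and 10.9 CPM in intact morulae, 0 in all 3 split morula pairs, 22.2, 34.7 and 28.7 in intact blastocysts and 7.48, 23.4 and 16.7 in split blastocysts (adjusted p = 0.0445). A group at 0 gives no interpretable ratio, and the Dsc2 call ended with 12 of the 14 units left out in turn.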

How the data were processed

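The authors deposited raw read counts for 37229 gene symbols in 24 Smart-seq2 libraries and TPM values for 15625 genes. Per the submitters' processing notes the tools were FastQC, MultiQC, cutadapt, HISAT2, featureCounts and edgeR with the GRCm39 build, without versions. The annotation release, the strand setting and the treatment of reads with several matches were not given in the sources used here, so counts of overlapping genes and near-identical copies are uncertain, and there were no molecular identifiers.

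Counts of sister embryos were summed to 14 units. Genes were kept by filterByExpr (14566), scaled by TMM (trimmed mean of M-values) factors and fitted with edgeR 4.0.16 (R 4.3.3, quasi-likelihood F test, robust) over the 4 groups, with 10 residual degrees of freedom. The contrast was (split blastocyst minus intact blastocyst) minus (split morula minus intact morula), and genes of any fold were called below 0.05 after Benjamini-Hochberg adjustment. CPM are counts on a fixed total of the scaled library, comparable between units for 1 gene and not corrected for length. Standard errors are the absolute log2 value divided by the square root of F. On simulated counts, 200 changed genes were drawn from those with an average log2 CPM of 5 or more. Of these 106 were recovered, with 5 false calls. The share recovered was 10.4% at a log2 change of 1, 61.2% at 2 and 87.9% at 3. Recovery of less abundant genes was not examined.

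Named genes were the 15 with the largest stage difference in each direction whose mean log2 CPM was 3 or more (no clone or pseudogene names), a panel of 20 markers, and up to 4 called members of each of 27 lists, by smallest p; some of them are not reported here. The comparison, the lists and the rule were chosen with earlier results of these data known, and 3 lists were added after values were seen. Lists are described by counts and medians, with no set test. Alternatives were other scalings and filters, DESeq2 1.42.0, limma 3.58.1 on counts and on log2(TPM + 1) and log2(TPM + 0.1), single sisters, thinning to the smallest unit total, a replicate block, and leaving out each unit. A transcript length offset and cyclic loess were added after the data were seen. Transcript lengths (GENCODE M21) and promoter windows (RefSeq, GRCm38.p6) were joined by gene symbol, with a length for 98.3% of tested genes; the counts were made on another build, and no coordinate of theirs was used.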

Additional observations from a re-analysis of the deposited data

Results flagged for a closer look

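The gene results in this section come from the 14 units of the stage difference, and the tests are edgeR's quasi-likelihood F test. The counts of 315 higher and 77 lower genes are themselves tests of a difference between the stages. Among the named genes called in each alternative tried, the stage differences were 1.72 for Psmb3, 1.94 for Psmb7, 1.73 for Psmc4 and 1.73 for Psma5 of the proteasome, and 2.99 for Idi1 of sterol synthesis. They were 2.49 for Exosc9, 2.24 for Apex1, 2.19 for Aimp2, 1.59 for Ndufa9 and 1.46 for Txn1. In the other direction they were -2.40 for Resf1 and -1.86 for Hsph1.

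A value far from the rest of its group was found in 7 of 108 groups of 4 or more values examined, where chance gives about 1 in 20. Levels of named genes were examined in intact morulae only, the only group with enough units. Total counts, mitochondrial share, genes detected and summed proteasome level were examined per library, in intact morulae and both split groups. All 7 were gene levels in intact morulae. Intact morula 5 had 152.5 CPM of Xist, against 0.0597 to 5.04 in the other 4, and 10.9 CPM of Dsc2, against 0 to 2.89. Intact morula 4 had 39.99 CPM of Klf2 (8.82 to 14.4 in the others) and 9.45 CPM of Eomes (0.156 to 1.67). Intact morula 1 had 3.88 CPM of Gata4, which was at 0 in the others. Intact morula 2 had 5.04 CPM of Pdgfra (0 to 1.01) and 7.52 CPM of Eno1b (9.29 to 9.98). Of these genes Dsc2 and Eno1b were called for the stage difference, and their part in it was examined by leaving out each unit: without intact morula 5 the Dsc2 call ended, and without intact morula 2 the Eno1b call held.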

How the results depend on the processing

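Under 29 alternatives every called gene that could be measured kept its sign, except Dsc2 on the log2(TPM + 1) scale (-0.032). The number of calls moved more. Genes called higher and lower were 736 and 318 with DESeq2, 298 and 77 with size factors by relative log expression, 427 and 139 with no filter, and 348 and 193 with mean log2 CPM of 3 or more. They were 218 and 42 with 8-cell embryos in the fit, 183 and 36 with blastomere 1 of each pair only, and 265 and 40 with blastomere 2 only. Limma gave 67 and 90 on log2(TPM + 1) and 60 and 75 on log2(TPM + 0.1), where the median of all genes was -0.23 and -0.27. The length offset gave 122 and 45, and cyclic loess 68 and 116; the cause of these moves was not tested. Higher genes were 44.4% of calls on log2(TPM + 0.1), 69.8% with DESeq2 and 64.3% with the stricter filter. Proteasome genes called higher were 22, and 11 on both TPM scales, 14 with the length offset and 8 with cyclic loess, with 0 called lower in any alternative.

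Leaving out each unit in turn gave 158 to 370 higher genes, 12 to 110 lower genes and 15 to 23 proteasome genes. Where 1 group was left with 2 units, these were assumed to vary like the others. Of 78 named called genes, 44 passed with every unit left out, and 145 of all 392 did. In all 29 alternatives 32 genes passed. Replicate numbers are shared between groups without a stated link. Units of the same number had correlations of their deviations from -0.034 to 0.098, against -0.118 to 0.057 for other numbers, so the numbers were not taken to pair them. With a replicate block, 151 genes were called higher and 25 lower. The adjusted p with it was 0.0525 for Cbr2 and 0.0527 for Dppa3. Sisters had a consensus correlation of 0.0733. Intact blastocysts had the fewest counts, and thinning all units to the smallest total gave 285 and 84.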
